A study of Mus musculus with 3 samples.

Results

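The 3 Robo receptors Robo1, Robo2 and Robo3 and the 3 Slit ligands Slit1, Slit2 and Slit3 were followed across the cell classes of the mouse dorsal pallial midline. The genes were found by Ensembl ID in the feature lists of all 3 libraries, where they are 6 of 27040 shared genes. The study compared single cells of this region between wild-type and Gmnc-/- embryos on a C57BL/6J background. Gmnc (geminin coiled-coil domain containing) is known for its part in multiciliated cell differentiation. The wild-type suspension pooled 4 embryos at E11.5 carrying PGKCre;Rosa26YFP and 4 embryos at E12.5 carrying Wnt3aCre;Rosa26tdTomato, and it was run as 2 libraries, called wild-type libraries 1 and 2. PGK is a ubiquitous promoter, so that YFP marks cells of any kind, and Wnt3aCre marks cells with a history in the cortical hem. The third library held 4 pooled embryos at E12.5 labelled Gmnc-/-, with no reporter named, and is called the knockout library. The wild-type libraries are repeats of 1 pool of embryos and there was 1 pool per genotype, so no test between genotypes was made. Stage, reporter alleles, dissection and processing version cannot be told apart from genotype.

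Slits are large secreted proteins that bind heparan sulfate and the extracellular domains of Robo receptors. Robo1 and Robo2 signal repulsion to growth cones and migrating neurons and are also known to act in cortical progenitors. Mammalian Robo3 is the divergent member, which binds Slits poorly, acts in midline crossing of commissural axons and binds the secreted protein Nell2. The cortical hem is a signalling centre at the pallial midline that gives rise to many Cajal-Retzius neurons, the early neurons of the cortical marginal zone, and lies beside the choroid plexus.

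The 6 genes lie on 5 chromosomes, given here in the GRCm38 assembly. Robo1 (chr16:72308306-73046095, plus strand) and Robo2 (chr16:73891839-74411825, minus strand) are neighbours on chromosome 16. Robo3 (chr9:37415669-37433246, minus strand) faces Robo4 (chr9:37401897-37415115, plus strand) tail to tail, with 553 bases between their 3′ ends. Slit1 lies at chr19:41600257-41743665 on the minus strand, Slit2 at chr5:47983138-48307733 and Slit3 at chr11:35121224-35708507, both on the plus strand. No protein-coding gene overlaps any of them in the annotation.

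Slit2 and Slit3 each host a gene of a microRNA, and the receptor genes hold matches to part of it, which is why its sequence is shown. Whether it acts on these genes was not tested. Mir218-1 (chr5:48223942-48224051) lies in intron 16 of Slit2 and Mir218-2 (chr11:35616816-35616925) in intron 14 of Slit3, both on the strand of the host gene. The mature miR-218-5p from RefSeq is given with bases 2 to 8, the seed, in capitals, followed by the 3′ UTR stretches of the receptors that hold AAGCACA, the complement of the seed, in capitals together with a following A where there is one.
mmu-miR-218-5p: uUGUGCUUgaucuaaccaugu
Robo1 site, chr16:73045337-73045366: tttggttttaaAAGCACAAtcactaaactt
Robo2 first site, chr16:73895347-73895376: tatttggtgatAAGCACAAatctctactcc
Robo2 second site, chr16:73893021-73893050: acggcagacccAAGCACAgcttctttcaga
Robo3 site, chr9:37416233-37416262: gtgactcactgAAGCACActgtctacaaca
Each of the 3 receptors held a match, 8 letters long in Robo1 and in the first site of Robo2. The 7 letters occur in 13.8% of 21013 mouse 3′ UTRs and the 8 letters AAGCACAA in 3.93%. Chance of a match grows with length, and among UTRs as long as that of Robo2 the 7 letters occur in 38.0%, against 3.09% among UTRs as short as that of Robo3. Among UTRs about as long as those of Robo1 and Slit2 they occur in 18.5% and 33.5%. The 8 letters occur in 5.01% of UTRs about as long as that of Robo1 and in 10.1% for Robo2. The Slit2 UTR held 2 matches of 7 letters, and those of Slit1 and Slit3 held none. The libraries count polyadenylated 3′ ends and not microRNAs, so the level of miR-218 was not measured.

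The libraries held 148073906, 139978761 and 259403297 unique molecular identifiers (UMIs, counted RNA molecules) in wild-type libraries 1 and 2 and the knockout library. After filters and doublet removal 8498, 7477 and 12865 cells remained, with medians of 11621, 12802 and 8617 UMIs, and the 6 genes together had 13819, 13578 and 22984 UMIs. The wild-type libraries shared 1914 deposited barcodes, of which 52 were among filtered cells, and 31 of those were removed as shallow copies. Cells were clustered without the 6 genes and named by marker lists with the suffix -like. Clusters left unnamed held 25.9%, 26.1% and 28.8% of cells, which belong to no class. Levels are UMIs summed over a class in 1 library, as counts per 1000000 UMIs of that class (CPM), and are compared between classes for 1 gene at a time. Intervals are exact Poisson 95% intervals and cover counting error only. Gmnc was counted at 97.1, 89.0 and 36.3 CPM in Cajal-Retzius-like cells of wild-type libraries 1 and 2 and the knockout library, and at 159, 138 and 213 CPM in intermediate progenitor-like cells. These 3′ counts read only the transcript's end, and cannot check a deletion elsewhere in the gene. Trp73, Lhx1 and Cdkn1a, markers of Cajal-Retzius cells that need Gmnc, had summed levels of 3134, 3148 and 39.6 CPM in the same cells.

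In the wild-type libraries each receptor was highest in a neuron class, and Slit2 and Slit3 were highest in choroid plexus-like cells. Robo2, a main Slit receptor of neurons, had its highest level in Cajal-Retzius-like cells, at 166, 173 and 211 CPM in wild-type libraries 1 and 2 and the knockout library. Other pallial neuron-like cells followed at 144, 148 and 136 CPM, and intermediate progenitor-like cells, which are newly committed to the neuronal lineage, had 66.3, 73.2 and 82.2 CPM. The order of these 3 classes was the same in each library, though the intervals of both neuron classes overlapped in the wild-type libraries. In hem progenitor-like cells Robo2 was at 5.14, 4.49 and 6.27 CPM, far below every neuronal class.

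Robo1, the other main Slit receptor, was at 29.9 and 33.6 CPM in Cajal-Retzius-like and 29.6 and 35.3 CPM in other pallial neuron-like cells of the wild-type libraries, with overlapping intervals. Mesenchyme-like cells, the non-neural class beside the pallium, stood close to the neurons at 25.7 and 28.6 CPM, and in the knockout library they had the highest Robo1 level, 63.9 CPM against 58.6 CPM in other pallial neuron-like cells. Wild-type levels in intermediate progenitor-like cells were lower, at 12.7 and 17.3 CPM. Robo1 was at most 2.45 CPM in hem, pallial progenitor-like and choroid plexus-like cells of the wild-type libraries.

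Robo3, the divergent receptor, was highest in the class named other pallial neuron-like. That name is a weak one: its 4 sub-clusters scored 1.81 to 2.69 on other pallial neuron markers and 2.67 to 3.13 on Cajal-Retzius markers, and they were set apart because the latter score was less than 1 above the former. Their leading genes included Neurod6, and in 3 of them also the Cajal-Retzius marker Calb2. Other pallial neuron-like cells had 307 and 338 CPM against 33.5 and 31.4 CPM in Cajal-Retzius-like cells, a ratio of 9.16 (95% interval 7.57 to 11.2) in library 1 and 10.8 (8.86 to 13.2) in library 2. That class was 2.74% and 2.92% of the wild-type cells and held 53.7% and 54.5% of their Robo3 UMIs. The corresponding ratios were 0.990 and 1.05 for Robo1 and 0.871 and 0.855 for Robo2 in the wild-type libraries, so that of the receptors Robo3 differed between the neuron classes by far more than the others. Intermediate progenitor-like cells had 34.9 and 41.0 CPM of Robo3.

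Slit2, a midline repellent, was found in progenitors and the choroid plexus. Choroid plexus-like cells had 151, 140 and 168 CPM in wild-type libraries 1 and 2 and the knockout library, hem progenitor-like cells 116, 113 and 107 CPM, and pallial progenitor-like cells 40.2, 42.9 and 64.5 CPM. Intermediate progenitor-like cells had 46.5, 47.6 and 60.8 CPM and both neuron classes 19.0 to 32.5 CPM. The levels thus went down from choroid plexus and hem to neurons in every library. A class named anterior signalling-like, with 540 cells in the knockout library and 1 in the wild type, had 170 CPM of Slit2 (95% interval 160 to 181).

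Slit3, the third secreted ligand, was found in the choroid plexus, hem and mesenchyme. Choroid plexus-like cells had 44.3, 49.5 and 49.3 CPM, hem progenitor-like cells 20.9, 19.1 and 20.6 CPM and mesenchyme-like cells 22.6, 18.8 and 27.0 CPM in wild-type libraries 1 and 2 and the knockout library. Choroid plexus-like cells were 12.6% to 15.7% of cells of a library and held 58.9%, 61.8% and 57.7% of Slit3 UMIs. Pallial progenitor-like cells had at most 0.41 CPM, so that Slit3 separated the hem from the neighbouring pallium where Slit2 was present in both.

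Slit1 was the only Slit gene with its highest level in neurons, at 11.2 and 9.09 CPM in wild-type Cajal-Retzius-like cells from 41 and 33 UMIs. Other pallial neuron-like cells had 5.53 and 2.84 CPM and intermediate progenitor-like cells 7.79 and 4.57 CPM, and neighbours in the order of these 3 classes had overlapping intervals. No Slit1 UMI was found in mesenchyme-like cells, where 3 UMIs would be 3.09, 2.68 and 1.65 CPM and the 95% intervals reach 3.80, 3.30 and 2.03 CPM. As a background, none of the 6 genes was above 1.28 CPM in the erythroid-like cluster that held all 3 libraries. A second erythroid-like cluster, with 141 cells of the knockout library only, had 30.0 CPM of Slit2, 23.3 CPM of Robo2 and 13.3 CPM of Robo3.

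**Figure D1:**
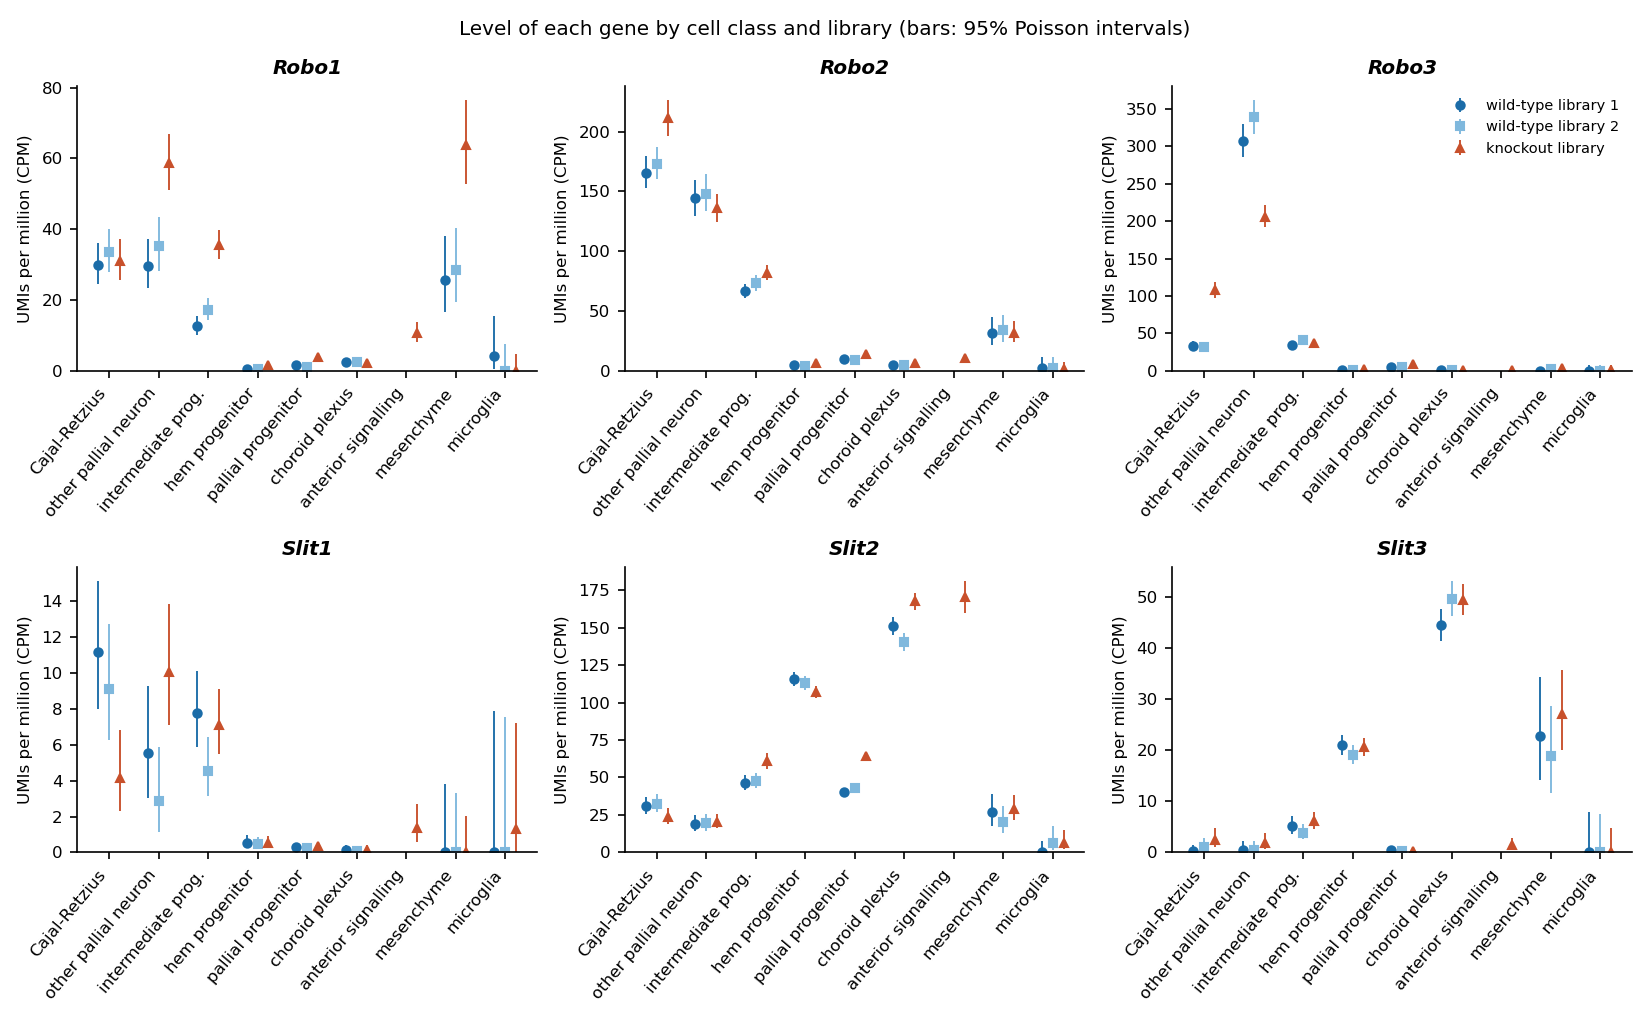
Levels of the 6 genes in CPM by cell class, 1 point per library with exact Poisson 95% intervals. Robo2 and Robo3 are highest in neuron classes in each library and Slit3 in choroid plexus-like cells, while Slit2 in the knockout library is 168 CPM in choroid plexus-like and 170 CPM in anterior signalling-like cells.

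Levels also varied inside the neuron classes, as the plot by sub-cluster shows. The wild-type Cajal-Retzius-like cells fell into sub-clusters N1, N5, N7 and N8, while 400 of the 412 knockout cells of this class were in N0, which held 15 cells of each wild-type library. The wild-type other pallial neuron-like cells were in N3 and N6 and the knockout cells in N4 and N9. Genotypes are thus compared between different sub-clusters in both neuron classes.

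Robo3 in the wild-type Cajal-Retzius-like sub-clusters was between 6.3 CPM, in N7 of library 2, and 64.3 CPM, in N8 of library 2. Knockout cells in N0 were at 110 CPM from 391 UMIs, above each of them, and the few wild-type cells in N0 had 53.1 and 26.9 CPM from 8 and 4 UMIs. In the other class N3 had 295 and 352 CPM and N6 318 and 328 CPM, against 207 and 205 CPM in the knockout sub-clusters N4 and N9. No knockout sub-cluster of either class lay within the range of the wild-type sub-clusters of its class. Robo2 differed less, from 101 to 187 CPM over the 4 wild-type Cajal-Retzius-like sub-clusters and 212 CPM in the knockout N0. Slit2 reached 77.3 and 87.0 CPM in N2, an unnamed neuron sub-cluster found in the wild-type libraries, where Robo3 was at 0.9 and 0.8 CPM. The leading genes of N2 included Cdkn1a and Trp73. Its 138 and 143 wild-type cells are not counted in the Cajal-Retzius-like levels.

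**Figure D2:**
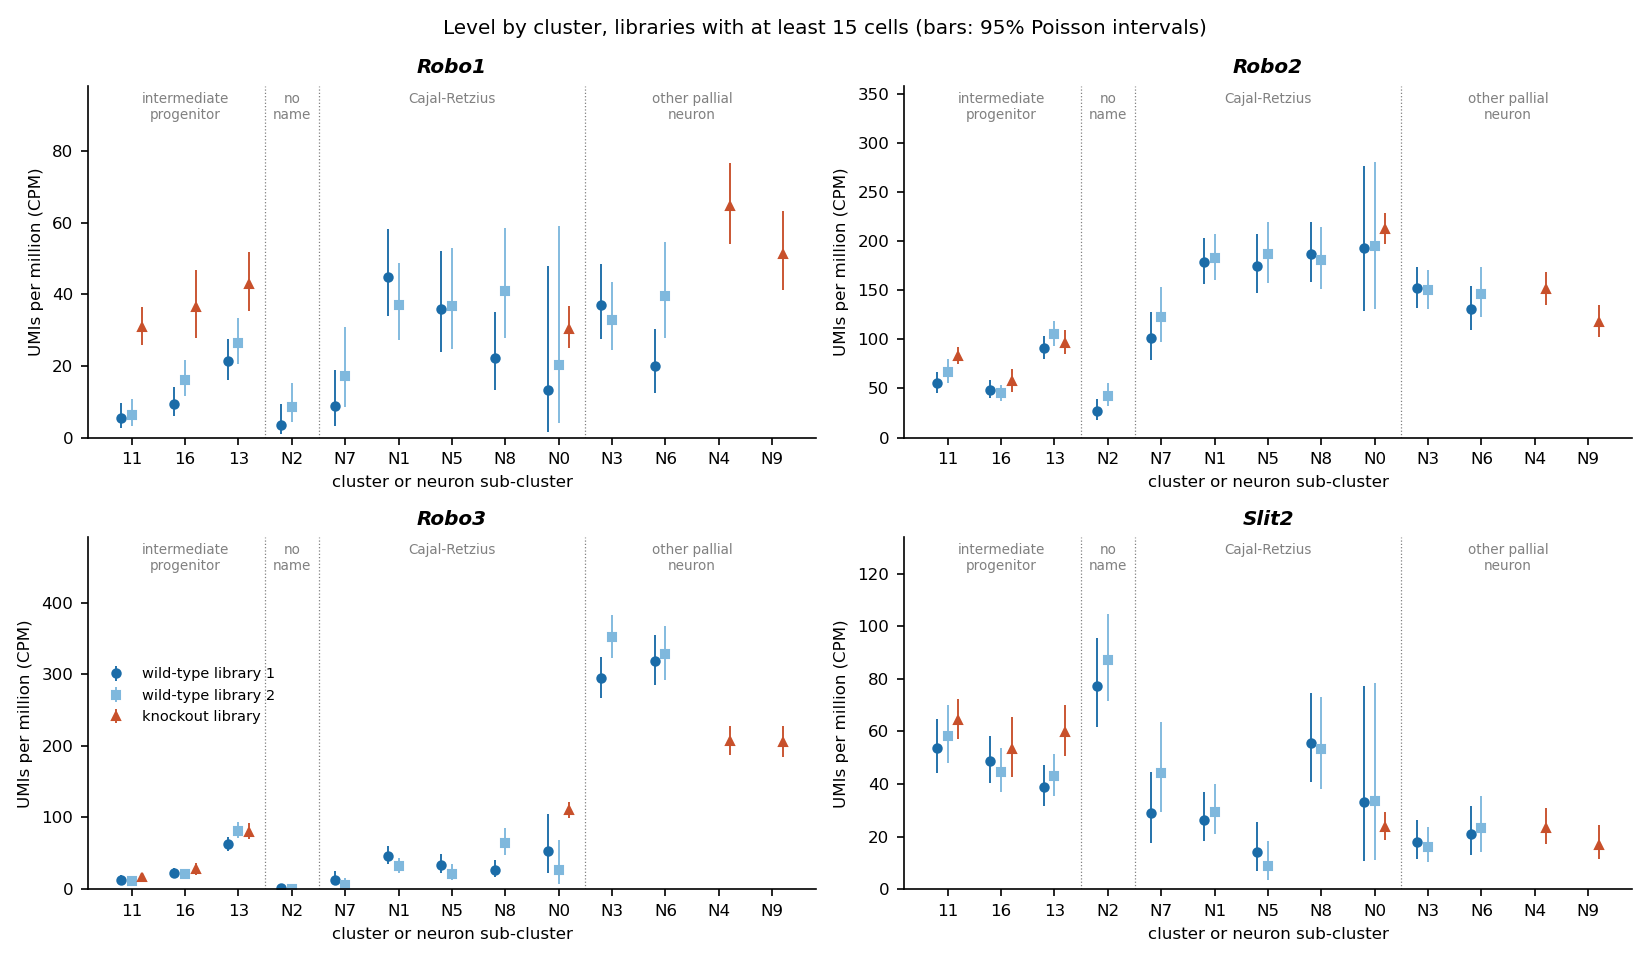
Levels of Robo1, Robo2, Robo3 and Slit2 in CPM in the intermediate progenitor-like clusters and the neuron sub-clusters, by library, with exact Poisson 95% intervals. Robo3 in knockout cells of N0 is above the wild-type Cajal-Retzius-like sub-clusters, and in N4 and N9 below N3 and N6.

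A gene was called different between the genotypes under 3 conditions. The knockout level had to be 2-fold or more above, or below, both wild-type libraries taken singly, the Poisson intervals had to be apart, and the gene had to be measured, meaning that the higher level rested on 50 or more UMIs and was at least 20 CPM. In Cajal-Retzius-like cells 15.9% of 6842 measured genes were called, 5.69% higher and 10.2% lower. Scaling the classes by median-ratio size factors or TMM moved the log2 folds of this class by 0.17 each, and the called genes, 389 higher and 700 lower, became 530 and 512 or 526 and 520. Of the members 4 were measured and Robo3 was called higher, also under both scalings. The median log2 fold of these 4 was 0.14, against -0.18 over all measured genes. The percentages called in the other classes were 6.58% in other pallial neuron-like cells (0 of 4 measured members), 6.49% in intermediate progenitor-like cells, with 3.97% higher (1 of 4, higher), 5.06% in hem, 4.02% higher and 1.04% lower (0 of 2), 4.82% in pallial progenitor-like (0 of 1), 7.53% in choroid plexus-like (0 of 2) and 5.39% in mesenchyme-like cells, with 3.25% higher (1 of 3, higher).

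Robo3 went from 33.5 CPM in wild-type library 1 and 31.4 CPM in library 2 to 108 CPM in the knockout library in Cajal-Retzius-like cells, from 123, 114 and 391 UMIs. The intervals of the knockout library did not overlap those of either wild-type library, and the level was 3.32-fold that of the wild type (95% interval 2.81 to 3.91). In cells thinned to 4000 UMIs, 55 of 458, 41 of 400 and 99 of 396 cells had a Robo3 UMI, and without thinning the shares were 18.2%, 16.3% and 41.7%. In other pallial neuron-like cells Robo3 was lower in the knockout library, at 206 CPM against 307 and 338 CPM, a ratio of 0.639 (0.586 to 0.697) that did not reach 2-fold. The thinned shares were 58.4% and 61.1% in wild type and 46.2% in the knockout library. The ratio of other pallial to Cajal-Retzius-like levels was accordingly 1.92 (1.69 to 2.17) in the knockout library, against 9.16 and 10.8 in wild type. Over both neuron classes together Robo3 was at 145, 156 and 158 CPM, a fold of 1.05 (0.975 to 1.13).

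In Cajal-Retzius-like cells, markers of the other class moved with Robo3, and in other pallial neuron-like cells they were higher in the knockout library while Robo3 was lower. The 11 listed markers of other pallial neurons had summed levels of 2033, 2048 and 5947 CPM in Cajal-Retzius-like cells of wild-type libraries 1 and 2 and the knockout library, and 5464, 5370 and 7679 CPM in other pallial neuron-like cells. The listed Cajal-Retzius markers had 1956, 1953 and 2827 CPM in Cajal-Retzius-like cells. Their part in the Robo3 result was not tested. The class boundary also bears on it: where a sub-cluster was counted as Cajal-Retzius-like with a marker score only 0.5 above the other score, in place of 1, the levels were 99.3, 90.5 and 143 CPM, a fold of 1.51, and Robo3 was not called. That setting left too few wild-type cells in the other class for a comparison, with 11, 1 and 352 Robo3 UMIs, and sub-cluster N3 in neither class.

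Haemoglobin RNA, a sign of blood-cell RNA in the suspension, was 374, 329 and 3418 CPM in Cajal-Retzius-like cells, and between 198 and 374 CPM in wild-type against 1139 to 5321 CPM in knockout neural classes. Its part in the results was not tested.

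**Figure D3:**
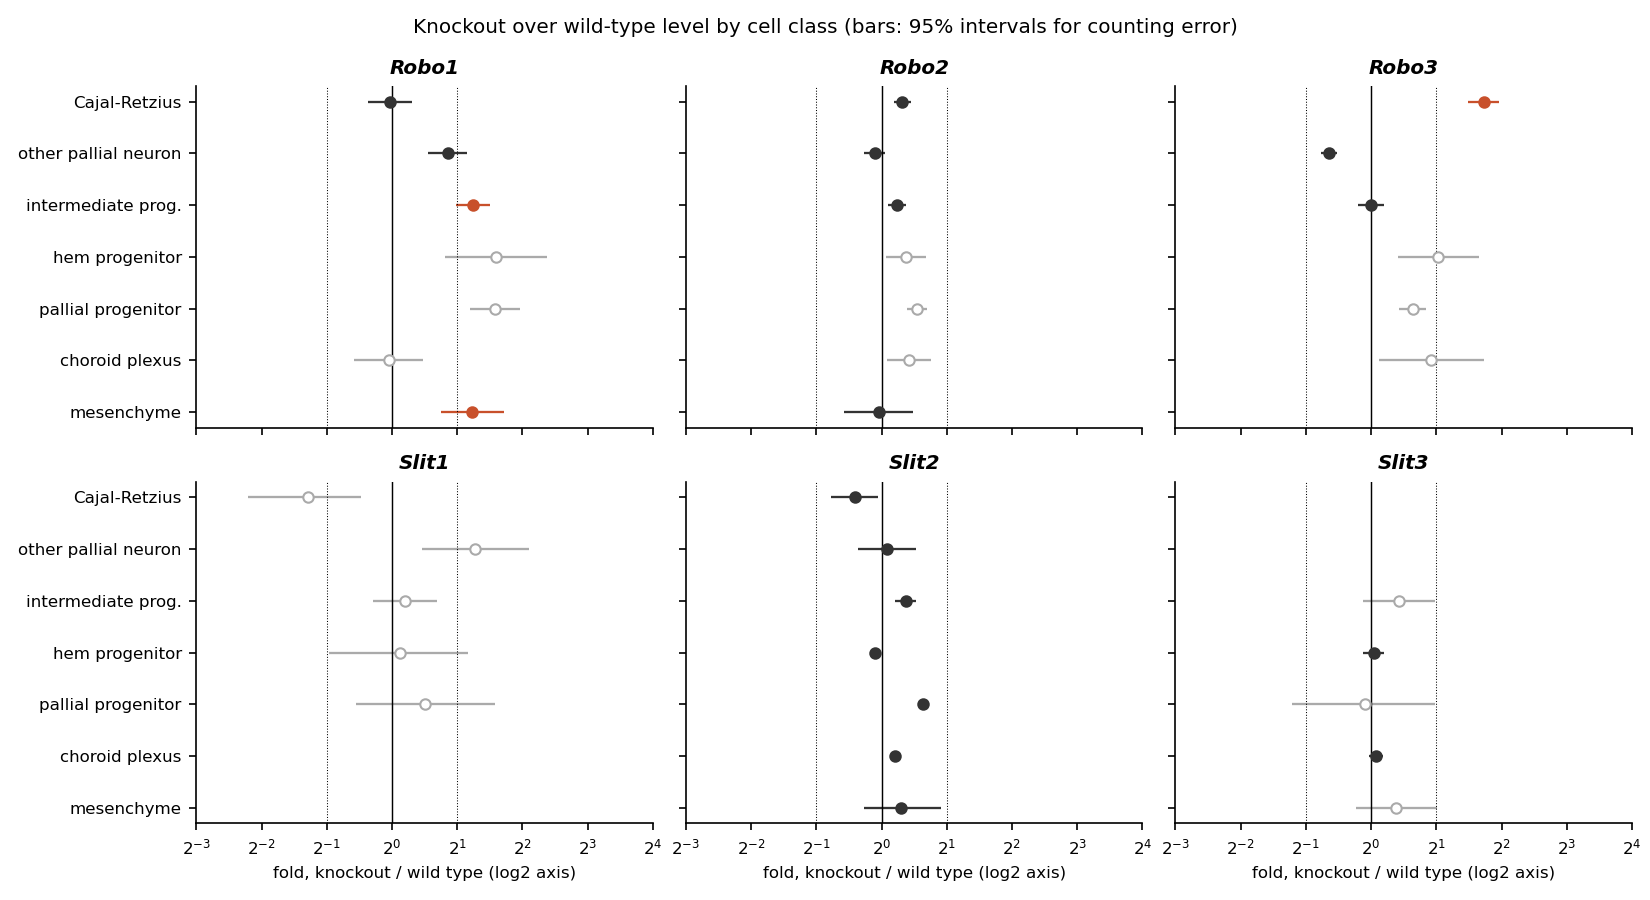
Fold of the knockout library over the mean of the wild-type libraries per class on a log axis, with 95% intervals from the counts. Robo3 is at 3.32 in Cajal-Retzius-like and 0.639 in other pallial neuron-like cells.

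Robo1 was higher in the knockout library in several classes, and called in 2 of them. In intermediate progenitor-like cells it was at 12.7 and 17.3 CPM in wild type and 35.5 CPM in the knockout library, a fold of 2.37 (95% interval 1.98 to 2.83). In mesenchyme-like cells it was at 25.7, 28.6 and 63.9 CPM, from 25, 32 and 116 UMIs, a fold of 2.35 (1.69 to 3.28). Neither class's knockout interval overlapped those of the wild-type libraries, but both calls were lost when doublets were kept and when cells were thinned to 4000 UMIs. In these settings the log2 fold, 1.19 in intermediate progenitor-like cells, was 1.12 and 1.2, and in mesenchyme-like cells it went from 1.2 to 0.70 and 0.62. The call in intermediate progenitor-like cells was also lost with clustering at resolution 2, where the levels were 12.7, 17.7 and 34.6 CPM. The mesenchyme-like class held 73, 70 and 164 cells, and its haemoglobin level was 252, 10206 and 4253 CPM. Listed mesenchyme markers summed to 8327, 8037 and 7171 CPM there. Listed markers of other pallial neurons summed to 2512, 2589 and 3575 CPM in the intermediate progenitor-like cells. The part of these levels in the Robo1 result was not tested.

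Within the intermediate progenitor-like class the Robo1 difference was uneven. In cluster 11 it was 5.36, 6.22 and 30.9 CPM, a fold of 5.34 (3.42 to 8.72), in cluster 16 it was 9.34, 16.1 and 36.4 CPM, and in cluster 13 it was 21.3, 26.5 and 42.9 CPM. Cluster 13 had the highest Robo1 level of the 3 in wild type and the smallest fold. In other pallial neuron-like cells Robo1 was at 29.6, 35.3 and 58.6 CPM, a fold of 1.80 (1.47 to 2.23), and in pallial progenitor-like cells at 1.53, 1.04 and 3.82 CPM, a level too low to be measured. In Cajal-Retzius-like cells the 3 libraries had 29.9, 33.6 and 31.1 CPM, and in choroid plexus-like cells 2.45, 2.38 and 2.34 CPM, with overlapping intervals in both classes.

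The 4 other members were not called in any of these 7 classes. Robo2 had a fold of 1.25 (1.14 to 1.37) in Cajal-Retzius-like cells and 0.929 (0.828 to 1.04) in other pallial neuron-like cells. Slit2 had folds from 0.754 in Cajal-Retzius-like to 1.55 (1.48 to 1.64) in pallial progenitor-like cells, where the levels were 40.2, 42.9 and 64.5 CPM. Slit3 was at 1.03 (0.922 to 1.15) in hem and 1.05 in choroid plexus-like cells. Slit1 in Cajal-Retzius-like cells had 11.2, 9.09 and 4.13 CPM from 41, 33 and 15 UMIs, a ratio of 0.408 (0.217 to 0.716). These levels lay below the minimum of 20 CPM for a call, and the knockout interval overlapped that of wild-type library 2. In other pallial neuron-like cells Slit1 went the other way, at 5.53, 2.84 and 10.1 CPM from 14, 7 and 38 UMIs. Over both neuron classes together its fold was 0.928 (0.649 to 1.31).

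**Figure D4:**
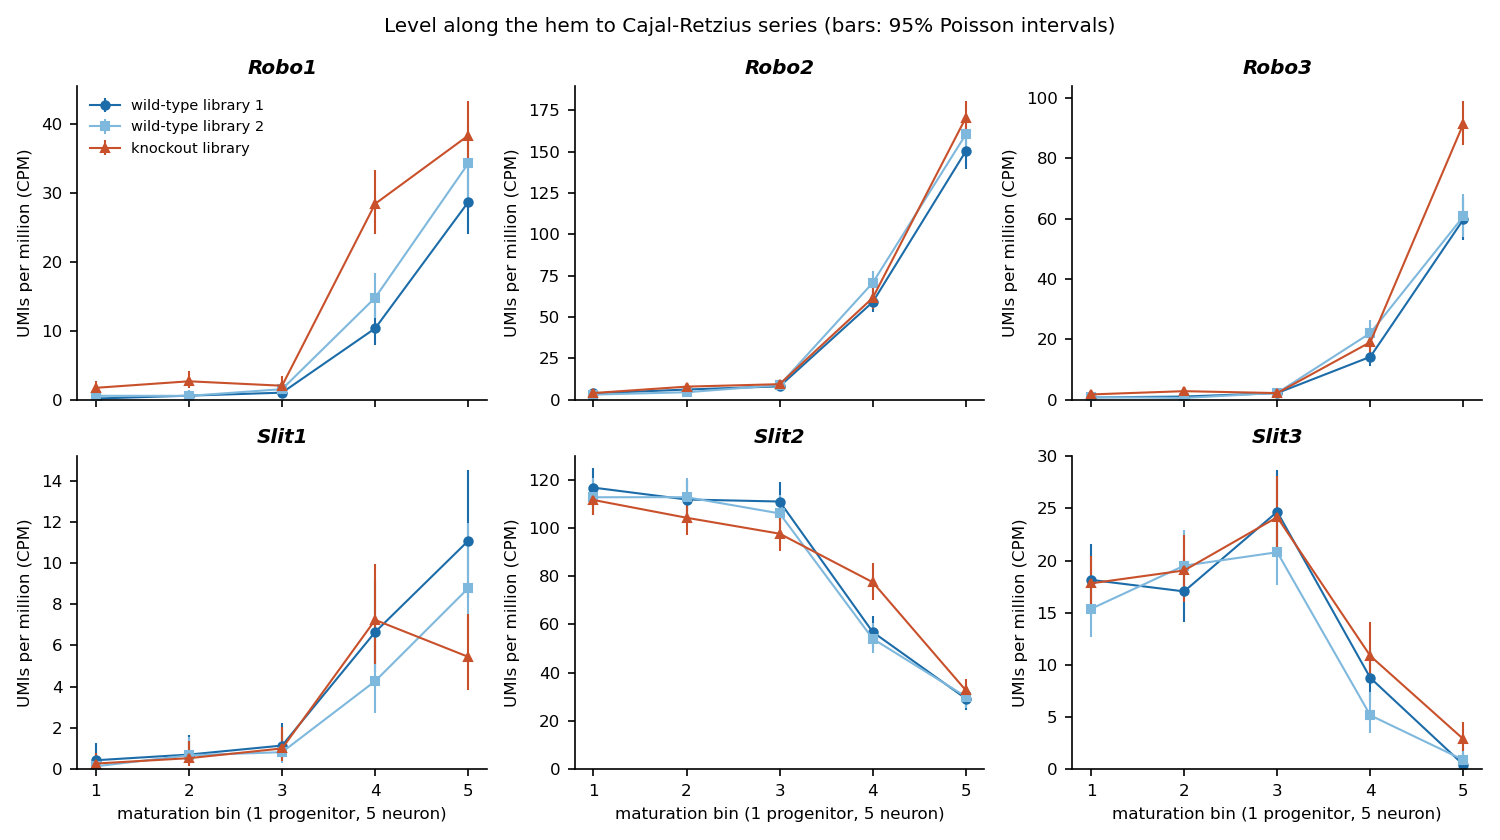
Levels of the 6 genes in CPM over 5 equal bins of a maturation score across hem progenitor-like, Cajal-Retzius-like and intermediate progenitor-like cells, by library. The receptors are highest in the last bin in each library and Slit1 in the wild-type libraries, while Slit1 in the knockout library is 7.24 CPM in the fourth bin and 5.45 CPM in the last.

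Along a maturation score that orders cells from the hem through intermediate progenitor-like to Cajal-Retzius-like in 5 bins, receptor levels were low until the third bin and high in the last, and Slit2 and Slit3 levels the reverse. Robo2 was at 7.99, 8.76 and 9.29 CPM in the third bin, 59.0, 70.6 and 61.5 CPM in the fourth and 150, 160 and 170 CPM in the last, in wild-type libraries 1 and 2 and the knockout library. Slit2 was at 111, 106 and 97.7 CPM in the third bin and 29.3, 30.1 and 32.7 CPM in the last. The directions were the same in all 3 libraries.

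Slit1 was at 6.65, 4.27 and 7.24 CPM in the fourth bin and 11.1, 8.78 and 5.45 CPM in the last, where the knockout library was thus lower. Slit3 had 24.7, 20.8 and 24.2 CPM in the third bin and 0.418, 0.878 and 2.87 CPM in the last. Robo1 in the fourth bin was at 10.3, 14.8 and 28.4 CPM, higher in the knockout library, and at 28.6, 34.2 and 38.3 CPM in the last. Robo3 in the last bin was at 59.8, 60.8 and 91.5 CPM. The last bin held Cajal-Retzius-like cells at 66.4%, 69.4% and 48.5%, so its mix of classes differed between genotypes. With 10 bins, wild-type Robo3 was at 58.8 and 68.8 CPM in the ninth bin and 60.8 and 51.5 CPM in the last. The wild-type libraries thus showed no common rise of Robo3 at the end, while the knockout library had 69.8 and 101 CPM in these bins.

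Single cells of the neuron classes often had no receptor UMI at this depth. In cells thinned to 4000 UMIs this was 43.4%, 44.3% and 32.1% of Cajal-Retzius-like cells, 22.1%, 19.9% and 28.9% of other pallial neuron-like cells and 71.8%, 64.3% and 61.7% of intermediate progenitor-like cells. In hem progenitor-like cells, which have little receptor RNA, it was 97.3%, 97.4% and 97.1%. Cells with UMIs of both Robo2 and Robo3 were 6.99%, 5.50% and 15.2% of Cajal-Retzius-like and 26.0%, 26.1% and 16.2% of other pallial neuron-like cells. The share with both was thus higher in the knockout library in the former and lower in the latter.

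The wild-type reporters allow a look at stage, since YFP marks E11.5 and tdTomato E12.5 embryos. Of 30 pairs of gene and class compared within the wild-type libraries, 1 differed at least 2-fold with intervals apart in both. Robo3 in intermediate progenitor-like cells was at 32.8 and 39.2 CPM in YFP cells and 11.6 and 17.1 CPM in tdTomato cells, a ratio of 0.355 (0.150 to 0.719) in library 1 and 0.437 (0.222 to 0.782) in library 2. In Cajal-Retzius-like cells Robo3 was at 30.8 and 26.8 CPM in YFP cells and 46.3 and 24.3 CPM in tdTomato cells, with no common direction. Compared with tdTomato cells alone, Robo3 in Cajal-Retzius-like cells remained called, at 1.58 on the log2 scale. In the same comparison Robo3 in intermediate progenitor-like cells was called higher in the knockout library, at 37.8 CPM, a fold of 2.63. The wild-type side of it held only 8 and 12 UMIs. Robo1 in mesenchyme-like cells was not called, but its wild-type levels rested on only 1 and 3 UMIs. Its fold there was 2.83, against 2.35 with all wild-type cells, but 3 and 6 tdTomato cells are too few to compare these folds. Robo1 in intermediate progenitor-like cells had a fold of 2.89 in this comparison, against 2.37 with all wild-type cells. Stage, Cre line and hem history differ together between YFP and tdTomato cells and cannot be told apart.

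The genes around the Slit and Robo pathway were described by 7 lists, against the 5.69% of all measured genes called higher and 10.2% called lower in Cajal-Retzius-like cells. In Cajal-Retzius-like cells 0 of 3 related receptor and ligand genes (Robo4, Nell1, Nell2) were measured. Of 12 measured co-receptor genes, 0 were called higher and 3 lower, which included Gpc1, a glypican, at 82.4, 72.7 and 26.1 CPM. Of 17 effectors 1 was called higher, Srgap3, a Slit-Robo GTPase-activating protein, at 26.7, 22.6 and 83.1 CPM, and 1 lower, the kinase Abl1, at 32.7, 33.6 and 15.1 CPM. Of 10 trafficking genes Ndfip1, an adaptor of Nedd4-family ligases that acts on Robo1, and Clasp2 were called higher. Of 4 netrin and netrin receptor genes the receptor Dcc was called higher, at 82.4, 73.8 and 575 CPM, and Unc5b lower, at 37.3, 35.5 and 5.23 CPM. Among 6 semaphorin genes 2 were higher, Plxna4 and Nrp2, and among 12 ephrin genes 2 were lower, Epha3 and Efna2. Under median-ratio or TMM scaling Abl1 and Efna2 were not called and the ephrin gene Efna5 was called higher, with the other calls of these lists as before. The median log2 folds of the lists lay between -0.27 and 0.26, against -0.18 over all measured genes.

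Ndfip1, Dcc, Srgap3 and Clasp2 were called higher in hem progenitor-like cells as well. Dcc was there at 11.6, 12.7 and 121 CPM and Ndfip1 at 18.0, 15.4 and 181 CPM, folds of 9.97 and 10.9, close to those of 7.36 and 9.33 in Cajal-Retzius-like cells. The knockout library's file names another software version than the wild-type files, and a shift shared by all classes cannot be told apart from one of genotype. Among the members, the folds of Robo3 and Robo1 differed between classes. Robo3 was at 0.639 in other pallial neuron-like and 0.996 (0.866 to 1.14) in intermediate progenitor-like cells, but above 1 at its low levels in hem (2.04, 1.33 to 3.16), pallial progenitor-like (1.55, 1.35 to 1.79) and choroid plexus-like cells (1.89, 1.09 to 3.32). Robo1 was at 0.979 (0.775 to 1.23) in Cajal-Retzius-like and 0.968 in choroid plexus-like cells and above 1 in the 5 other classes, up to 3.01 (1.76 to 5.22) in hem progenitor-like cells from 9, 14 and 42 UMIs. The part of the software version in these folds was not tested.

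Over 23 clusters and 9026 genes, the genes whose levels were most like each member were ranked by Pearson's r of log2 CPM, given as a description since clusters share libraries and depth. Robo1 was most like Robo2 (0.923), followed by Plxna4 (0.912). Robo2 was most like Lrp11 (0.971), and Robo3 like Pcdh15 (0.955) and Neurod6 (0.941), a transcription factor of pallial neurons. Slit1 was most like Frrs1l (0.937), Slit2 like Sema3c (0.932), a secreted semaphorin, and Slit3 like Adamts5 (0.927). Robo3 and Slit3 had the lowest value between members, -0.51.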

How the data were processed

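Cells were dissociated from the dorsal pallial midline of both hemispheres and run with the 10x Genomics 3′ version 3 chemistry. The authors deposited filtered gene-by-cell matrices of raw UMI counts, made with Cell Ranger 3.1.0 against mm10 per the submitters' processing notes. Per the file headers, the wild-type matrices carry version 3.1.0 and the knockout matrix 6.0.0, with 28001 and 32285 features. Only the 27040 genes present in all libraries by Ensembl ID were used, which held 99.8%, 99.8% and 99.2% of UMIs.

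Cells with at least 1000 genes, at least 2000 UMIs and at most 10% mitochondrial UMIs were kept (9467, 8155 and 15353), and 938, 678 and 2488 were removed as doublets by scores against simulated pairs. Cells were scaled within genotype and clustered with leidenalg 0.10.2 at resolution 1, leaving out the members, the pathway lists, Gmnc and sex genes. Clusters were named where at least 3 listed markers were 2-fold above the mean of other clusters. Neuron sub-clusters were Cajal-Retzius-like where that score exceeded the other pallial score by at least 1. Those with an intermediate progenitor score above both were first set apart. A sub-cluster was then left unnamed where its 10 leading genes held more markers of another class than of its own, as for N2. These naming details were settled after the clusters were seen. Counts were summed per class and library. Folds compare the knockout library with the mean of the wild-type libraries, with 95% intervals conditional on the summed counts, and log2 values use CPM plus 1. The rule for calls was tested on simulated data. The named genes were the 6 members, the called genes of each pathway list, at most 4 per list and class, and the 3 genes most like each member. The members and lists were chosen with earlier results of these data known. Sites were read from GRCm38 with the GENCODE annotation, and the mature microRNA from RefSeq. Python 3.11.15, numpy 2.4.6 and scipy 1.17.1 were used.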

Additional observations from a re-analysis of the deposited data

Results flagged for a closer look

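Robo3 was flagged because the fold of the knockout library over wild type lay on opposite sides of 1 in both neuron classes. It was 3.32 in Cajal-Retzius-like cells, above both wild-type libraries, and 0.639 in other pallial neuron-like cells, below both. The difference between the classes was not tested, since there was 1 pool of embryos per genotype.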

How the results depend on the processing

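No paired analysis was possible because the genotypes share no replicates and no test was run between them. The main settings called 3 pairs of member and class: Robo3 in Cajal-Retzius-like cells and Robo1 in intermediate progenitor-like and mesenchyme-like cells. Keeping doublets left 1 pair and thinning cells to 4000 UMIs left 1, in both settings Robo3 in Cajal-Retzius-like cells. Leaving out each wild-type library in turn gave 3 and 3. Over 15 settings, the log2 fold of Robo3 in Cajal-Retzius-like cells was between 0.59 and 1.87 and was called in 13. It was not called with a marker margin of 0.5, or when only clusters holding 20 or more cells per genotype were kept (1.43). Robo1 was called in 12 of 15 settings in each of its classes. Robo3 in other pallial neuron-like cells was lower in 13 of 14 settings and called in none, and the exception, the margin of 0.5, rested on 11 and 1 wild-type UMIs. Among those 13, clustering at resolution 0.5 rested on only 20 and 0 wild-type UMIs, a fold of 0.861. A floor of 10 UMIs without a CPM minimum raised the genes called in Cajal-Retzius-like cells from 1089 to 1806, and leaving out a wild-type library gave 1228 to 1249. In the wild-type libraries the members highest in the last maturation bin numbered 4 with 5 bins and 3 with 10, where Robo3 was no longer among them. Reporter pairs were 1 of 30 in the main setting, 0 of 12 with 2 reporter UMIs required, and 1 to 2 without one wild-type library. A class needed 50 cells of each reporter, which fewer classes had with 2 UMIs, so the 0 does not speak to the pairs left out. No called member reversed direction in these settings. The margin, shared-barcode and cluster 14 settings were chosen after seeing the data. Slit1 had at most 62 UMIs in any class of a library, which limits what can be said of it.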
